A study of Homo sapiens with 12 samples.

Results

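The miR-23, miR-27 and miR-24 families are made from 2 paralogous gene clusters, and 6 of their mature miRNAs were followed here in Huh7 cells, a human hepatocellular carcinoma line. The 6 were taken by name from the 2652 mature miRNAs counted in each library: hsa-miR-23a-3p, hsa-miR-27a-3p and hsa-miR-24-2-5p of the MIR23A cluster, hsa-miR-23b-3p and hsa-miR-27b-3p of the MIR23B cluster, and hsa-miR-24-3p, which both clusters make. The species prefix is left out below. The cells were labelled with 4-thiouridine (4SU), a uridine analogue that is built into new RNA and, after alkylation with iodoacetamide, is read as C in place of T in the sequenced library (SLAMseq). Control cells received DMSO and no 4SU, DMSO cells received DMSO and 500 µM 4SU, and PlaB cells received pladienolide B and 500 µM 4SU, each for 4 h and each in 4 independent experiments. PlaB blocks SF3B1, a spliceosome component. The sample labels give its dose as 500 µM, and the methods of the study give a lower one. All 12 libraries come from 1 cell line, and RNA made before the 4 h of labelling is counted together with RNA made during it.

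The paralogous clusters carry the same order of hairpins and give guide strands with the same seeds, the bases that pair with target mRNAs. As background, a primary transcript is cut by the Microprocessor into hairpins, Dicer releases a duplex of a 5p and a 3p strand, and one strand is usually kept in the silencing complex while the other is turned over. In liver cells and elsewhere miR-27 is known for repressing genes of lipid metabolism, miR-23 for regulating glutaminase, and miR-24 for regulating cell cycle genes. The comparison of the clusters bears on whether a miRNA in a long non-coding RNA (lncRNA) and its paralogue in an intron of a protein-coding gene respond alike when splicing is inhibited.

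In GENCODE version 44 on GRCh38 the MIR23A cluster spans 373 bp on the minus strand of chromosome 19, from 13836287 to 13836659. Its hairpins MIR23A (13836587 to 13836659), MIR27A (13836440 to 13836517) and MIR24-2 (13836287 to 13836359) all lie in the 1 annotated exon of MIR23AHG, an lncRNA gene for which this annotation has 1 transcript and no intron. The MIR23B cluster spans 881 bp on the plus strand of chromosome 9, from 95085208 to 95086088, inside the protein-coding gene AOPEP. MIR23B (95085208 to 95085304) and MIR27B (95085445 to 95085541) are intronic in 7 of the 21 annotated AOPEP transcripts. MIR24-1 (95086021 to 95086088) is intronic in 6 of them and overlaps exon 7 of the transcript AOPEP-213, and the hairpin MIR3074 lies over it on the opposite strand.

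The mature sequences show how close the paralogues are, and which reads can be told apart. They are given 5′ to 3′ as RefSeq has them for GRCh38.p14, with the seed (bases 2 to 8) in capitals, first the 3p strands and then the miR-24 5p strands and the miR-27 5p strands.
miR-23a-3p: aUCACAUUgccagggauuucc
miR-23b-3p: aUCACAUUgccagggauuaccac
miR-27a-3p: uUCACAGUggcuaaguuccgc
miR-27b-3p: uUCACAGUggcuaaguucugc
miR-24-3p: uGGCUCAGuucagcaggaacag
miR-24-2-5p: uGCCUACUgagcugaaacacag
miR-24-1-5p: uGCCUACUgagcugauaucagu
miR-27a-5p: aGGGCUUAgcugcuugugagca
miR-27b-5p: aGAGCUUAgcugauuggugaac

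Counting from 1 at the 5′ end, miR-23b-3p differs from miR-23a-3p by U19A and by 2 extra bases at its 3′ end. The difference of miR-27a-3p from miR-27b-3p is U19C, so a T>C conversion at that base of miR-27b-3p gives the sequence of miR-27a-3p. The miR-24-3p sequence is identical at both loci, whereas miR-24-2-5p and miR-24-1-5p differ at 6 of 22 bases, and these 5p strands therefore tell the MIR24 hairpins apart. The miR-27 5p strands do not share a seed: they differ at 8 of 22 bases, 1 of them in the seed.

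The libraries held 1667668 to 2393680 reads on miRNAs in Control, 1968612 to 3880241 in DMSO and 1522210 to 1979696 in PlaB. DMSO replicates 1 and 2 combine 3 sequencing runs each and are the deepest. By the paper's methods these runs are of the original library, a newly prepared one and a re-amplified one. The part of this added preparation in the results was not tested. The cell type was checked by marker miRNAs: the hepatocyte markers miR-122-5p and miR-122-3p together took 59353 to 110892 CPM (reads scaled to a common library total), the haematopoietic markers at most 4.04, the muscle markers at most 10.2 and the neuronal markers 1.97 to 54.9. Across all miRNAs the T>C conversion rate, which is conversions divided by covered T positions, was 0.0225% to 0.0319% in Control, 0.246% to 0.290% in DMSO and 0.135% to 0.171% in PlaB. Libraries of the 3 conditions did not overlap in it.

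The 6 miRNAs took between 4.11% and 5.63% of all reads of a library. By mean CPM over the 12 libraries, miR-24-3p ranked 10th of 2652, miR-27b-3p 12th, miR-23b-3p 22nd, miR-23a-3p 37th, miR-27a-3p 56th and miR-24-2-5p 227th. The mature forms are 21 to 23 bases long. The paper names sequencing bias as a known difficulty of miRNA-seq, and its size between these sequences was not tested. Levels of different miRNAs are therefore compared as reads, not as numbers of molecules. The b-cluster guides of miR-23 and miR-27 had more reads than their a-cluster paralogues in every library.

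In Control cells miR-27b-3p stood at 18082, 18314, 16290 and 16573 CPM in replicates 1 to 4, and miR-27a-3p at 1730, 2456, 1842 and 1467 CPM. Their means were 17315 ± 1031 and 1874 ± 419 CPM (SD, n = 4). The corresponding values of miR-23b-3p were 6735, 7349, 6649 and 6895 CPM (6907 ± 312, SD, n = 4) and those of miR-23a-3p were 3365, 5256, 4102 and 3643 CPM (4092 ± 834, SD, n = 4). Replicate 2 was the highest Control library for each of these 4 guides.

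miR-24-2-5p, the strand opposite miR-24-3p in the MIR24-2 hairpin, was present at 60.6, 58.5, 50.8 and 41.9 CPM in Control (52.9 ± 8.49, SD, n = 4), which is 92 to 140 reads per library. In each condition the order of the mean levels was the same from miR-23b-3p down, and the ranges of neighbours from miR-23b-3p down to miR-24-2-5p did not overlap. The 2 most abundant, miR-24-3p and miR-27b-3p, overlapped in Control and in DMSO but not in PlaB.

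**Figure D1:**
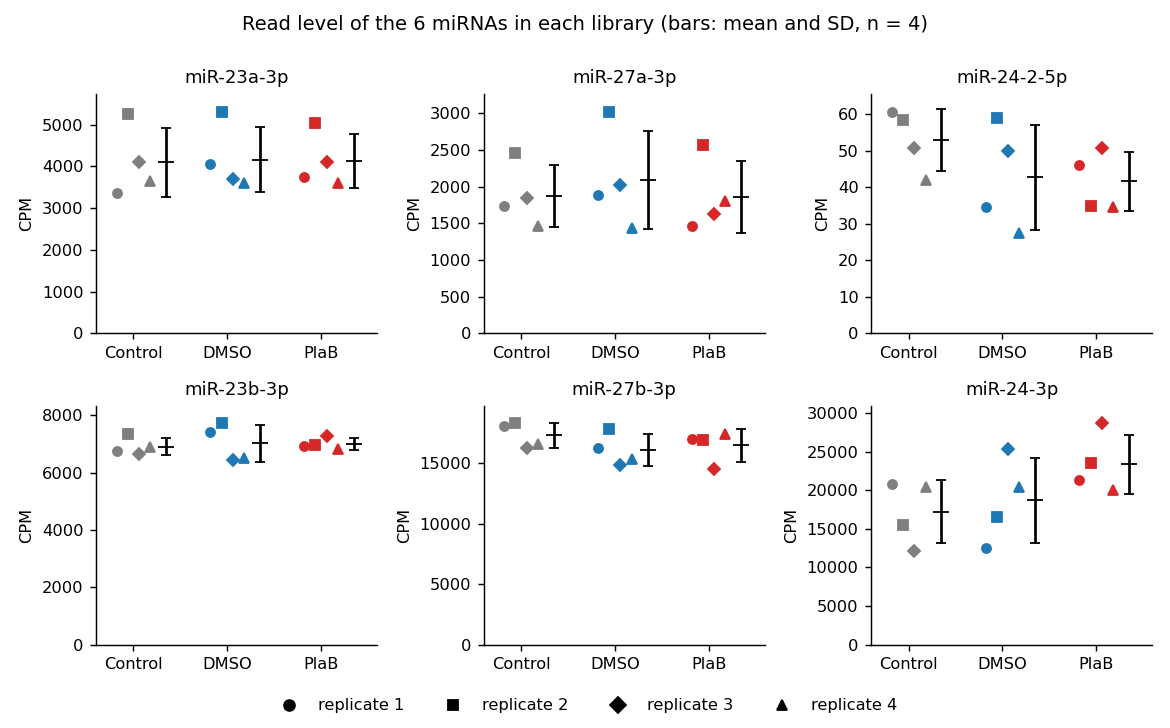
Level of each of the 6 miRNAs in CPM (vertical axis, linear and starting at 0) in the 4 Control, 4 DMSO and 4 PlaB libraries; points are libraries, marker shapes are replicate numbers, and the bar beside each group is its mean with the SD. The 3 conditions overlap in all 6 panels, and the widest scatter relative to the mean among the 3p strands is that of miR-27a-3p and miR-24-3p.

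For miR-24-3p the libraries fell into 2 sets, with Control and DMSO divided between them and all PlaB libraries in the same set. Comparisons with PlaB are therefore uneven in this split. In Control replicates 2 and 3 and DMSO replicates 1 and 2, between 35.8% and 39.9% of its reads were marked as mapping to several places. In the other 8 libraries the share was 99.2% to 99.5%. The first set held 12190 to 16530 CPM of miR-24-3p and the second 20018 to 28720 CPM, with no overlap. Of the 187 miRNAs with at least 100 reads in every library, 32 were over 90% multi-mapping in the 8 libraries, and 5 of these fell below 50% in each of the 4: miR-103a-3p, miR-24-3p, miR-365b-3p, miR-548o-3p and miR-885-5p. The part of this split in the level of miR-24-3p was not tested, and each comparison of miR-24-3p between conditions is given below with and without the 4 libraries. The other members were nearly free of such reads: 1.11% to 2.03% of miR-27a-3p reads, at most 0.265% of miR-27b-3p, 0.233% of miR-23a-3p and 0.107% of miR-23b-3p, and 0 of 1201 miR-24-2-5p reads over all libraries.

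**Figure D2:**
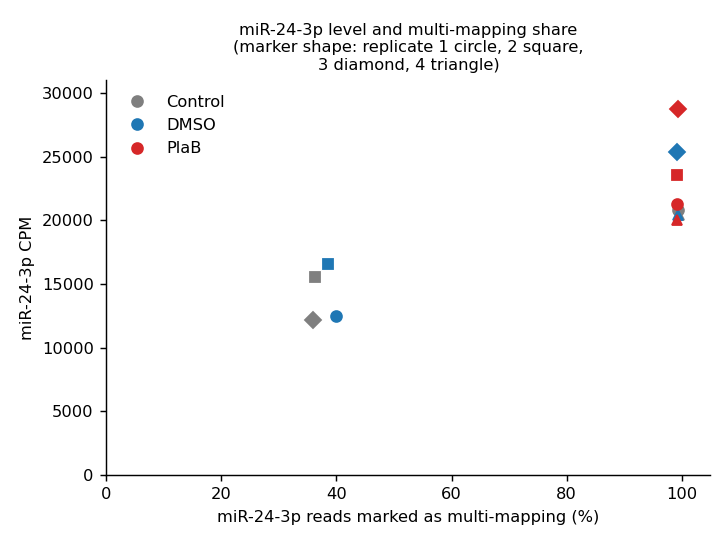
Level of miR-24-3p in CPM (vertical axis) against the percent of its reads marked as multi-mapping (horizontal axis), 1 point per library, coloured by condition. The 4 libraries at 35.8% to 39.9% lie between 12190 and 16530 CPM, below all 8 libraries at 99.2% to 99.5%, and none of them is a PlaB library.

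With 4SU labelling alone, no change in the reads of the 6 miRNAs passed the test, while most of their partner strands had fewer reads. Between DMSO and Control, 0 of the 6 members passed the threshold (edgeR quasi-likelihood test, adjusted p 0.05), against 5.96% of the 537 miRNAs tested, 0.931% higher and 5.03% lower. None of the 6 had an unadjusted p under 0.05, and DESeq2 called 0 as well. Their log2 fold changes ran from -0.28 ± 0.26 (SE) for miR-24-2-5p to 0.18 ± 0.24 for miR-27a-3p, with a median of 0.04, and the median over all 537 was 0.04 too. The adjusted p-values of the 6 were 0.673 to 0.959. Without the 4 libraries with a low multi-mapping share the log2 fold change of miR-24-3p went from 0.14 to 0.17.

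The partner strands are the other arms of the hairpins, miR-23a-5p, miR-27a-5p, miR-23b-5p, miR-27b-5p and miR-24-1-5p. Of these 5 strands, 4 fell in reads, where 5.03% of all miRNAs tested were called lower. The authors also filtered reads on how well they matched the genome, and the part of that filter in this fall was not tested. miR-27a-5p stood at 230.9, 163.3, 160.6 and 158.3 CPM in Control and at 29.1, 21.98, 25.1 and 18.8 CPM in DMSO. It fell by 2.89 ± 0.34 on the log2 scale (SE, edgeR adjusted p = 5.17e-05), one of the 4 lowest values among the miRNAs tested.

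miR-27b-5p stood at 694.4, 541.4, 556.4 and 585.4 CPM in Control and at 184.5, 165.8, 150.7 and 145.3 CPM in DMSO. It fell by 1.86 ± 0.17 on the log2 scale (SE, edgeR adjusted p = 5.33e-06). In both miR-27 hairpins every DMSO library lay below every Control library for the 5p strand. The same held for miR-23a-5p and miR-23b-5p, but not for miR-24-1-5p. The share of all miRNAs with this order of reads was not computed. As a share of the 3p strand's reads, miR-27a-5p went from 9.88% ± 2.86 in Control to 1.21% ± 0.345 in DMSO (SD, n = 4), and miR-27b-5p from 3.44% ± 0.367 to 1.01% ± 0.0926.

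The miR-23 5p strands were scarce. miR-23b-5p had 67 to 139 reads per Control library and 17 to 77 per DMSO library, and it fell by 1.99 ± 0.37 on the log2 scale (SE, edgeR adjusted p = 0.00332). miR-23a-5p had 17 to 31 reads per Control library and 1 to 13 per DMSO library, and fell by 2.68 ± 0.62 (SE, edgeR adjusted p = 0.0169). That call was lost without Control replicate 3 (edgeR adjusted p = 0.0657), DMSO replicate 2 (0.0786), DMSO replicate 3 (0.0690) or DMSO replicate 4 (0.0697), without DMSO replicates 1 and 2 (0.0811) and without the 4 libraries with a low multi-mapping share (0.226). The fifth partner strand, miR-24-1-5p, did not pass, with a log2 value of -0.45 ± 0.38 (SE, edgeR adjusted p = 0.647).

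No change in amount passed the test under splicing inhibition either. Between PlaB and DMSO, 0 of 6 members and 0 of 5 partner strands were called, where 2 of the 537 miRNAs, or 0.372%, were, both lower and 0.0% higher. None of the 6 members had an unadjusted p under 0.05 and DESeq2 called 0. Log2 fold changes of 5 members lay between -0.17 and 0.02 with SEs of 0.10 to 0.26. The sign of these small values changed with the scaling for miR-23a-3p and miR-23b-3p.

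The sixth, miR-24-3p, had the largest value of the members, 0.31 ± 0.22 (SE, edgeR adjusted p = 0.940). Its libraries held 12509, 16530, 25336 and 20397 CPM in DMSO and 21307, 23602, 28720 and 20018 CPM in PlaB. The 2 lowest of these 8 values are those of DMSO replicates 1 and 2, the DMSO libraries with a low multi-mapping share. Without the 4 libraries of that kind the log2 fold change was 0.06.

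New RNA was detected for all 6 miRNAs. In DMSO against Control, T>C conversion rates of 6 of 6 members rose (edgeR on conversions with covered T positions as offset), where 81.1% of the 238 miRNAs with enough conversions were called higher, 0.42% lower and 81.5% in either direction. The conversion rate of miR-23a-3p was 0.0505%, 0.0186%, 0.0381% and 0.0230% in the Control libraries and 0.237%, 0.151%, 0.245% and 0.186% in the DMSO libraries. Its mean was 6.29 times higher, and its log2 fold change 2.70 ± 0.37 (SE, edgeR adjusted p = 4.25e-10). This was the highest rate among the 5 abundant strands in both conditions, and the range in DMSO overlapped that of miR-27a-3p.

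The rate of miR-23b-3p was 0.0178%, 0.00683%, 0.0116% and 0.0122% in Control and 0.0933%, 0.0609%, 0.0844% and 0.0438% in DMSO. Its mean was 5.83 times higher (log2 fold change 2.57 ± 0.45, SE, edgeR adjusted p = 6.15e-07). Each DMSO library was above each Control library for miR-23b-3p, as it was for all 6 members, where 62.2% of the 238 miRNAs showed such an order.

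The rate of miR-27a-3p was 0.00581%, 0.00854%, 0 and 0.0334% in Control, which rests on 0 to 7 conversions per library, and 0.0641%, 0.122%, 0.229% and 0.148% in DMSO, on 25 to 72 conversions. The log2 fold change was 3.49 ± 0.64 (SE, edgeR adjusted p = 1.41e-06). For miR-27b-3p, the mean rate was 0.0135% ± 0.00564 in Control and 0.0919% ± 0.0102 in DMSO (SD, n = 4), with 178 to 431 conversions per DMSO library. Its log2 fold change was 2.78 ± 0.30 (SE, edgeR adjusted p = 7.62e-14). In DMSO and in PlaB the rates of miR-27b-3p were the most alike between replicates, relative to their mean, of the 6.

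The mean rate of miR-24-3p was 0.0121% ± 0.00293 in Control and 0.109% ± 0.0298 in DMSO (SD, n = 4), and the fitted log2 change was 3.19 ± 0.33 (SE, edgeR adjusted p = 8.39e-15). Without the 4 libraries with a low multi-mapping share it was 3.08. In the order of mean DMSO rates, miR-23a-3p, miR-27a-3p, miR-24-3p, miR-27b-3p and miR-23b-3p, each pair of neighbours overlapped.

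miR-24-2-5p carried far more conversions per T than the guides. Its rate was 3.75%, 1.83%, 0.248% and 2.31% in the DMSO libraries, from 20, 14, 1 and 5 conversions. In Control 0 of 1732 covered T positions were converted, which allows a rate of up to 0.173%. The pooled DMSO rate, 2.08%, was 12.0 times this limit, a ratio that leaves out the spread between libraries (edgeR adjusted p = 2.71e-04). DMSO replicate 3 stood apart with 1 conversion at 404 positions (95% Wilson interval 0.0437% to 1.39%), and its interval does not overlap that of replicate 1 (2.44% to 5.72%). Intervals and limits cover counting error only. The call was lost without the 4 libraries with a low multi-mapping share (adjusted p = 0.0894), of which 2 are the DMSO libraries with the most miR-24-2-5p reads.

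**Figure D3:**
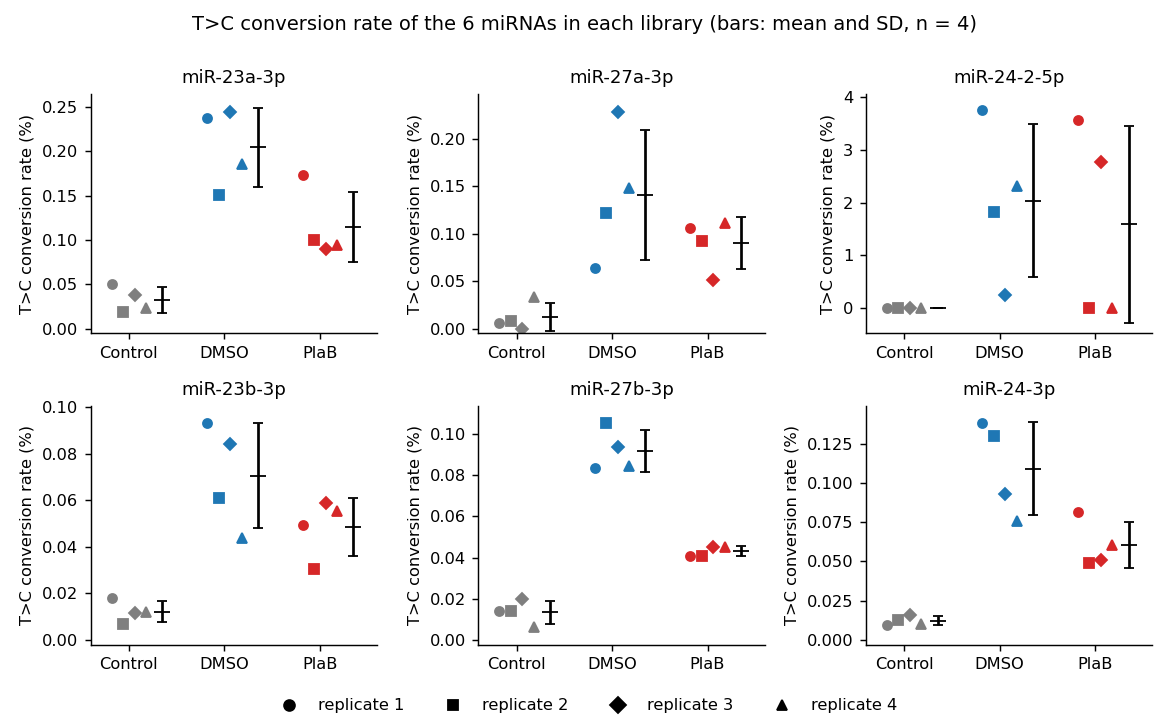
T>C conversion rate in percent (vertical axis, a different linear scale in each panel) of the 6 miRNAs in the 4 Control, 4 DMSO and 4 PlaB libraries; points are libraries, marker shapes are replicate numbers, and bars are the mean with the SD. In all 6 panels the DMSO libraries lie above the Control libraries, and the PlaB libraries lie wholly below the DMSO libraries for miR-27b-3p only.

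In PlaB against DMSO the conversion rate of 3 of the 6 miRNAs fell, the guides miR-27b-3p, miR-24-3p and miR-23a-3p, which is 1 of 3 a-cluster members, 1 of 2 b-cluster members and the shared one. Over all 238 miRNAs, 37.0% were called lower, 0.42% higher and 37.4% in either direction. The median log2 fold change of the 6 was -0.73, against -1.17 over all 238 with the 20 miRNAs that had no conversion in 1 of the conditions placed at their limit. All 6 lay above that median.

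miR-27b-3p showed the clearest decrease. Its rate was 0.0837%, 0.106%, 0.0939% and 0.0846% in DMSO and 0.0410%, 0.0410%, 0.0453% and 0.0451% in PlaB. The log2 fold change was -1.09 ± 0.28 (SE, edgeR adjusted p = 0.00107). The highest PlaB value was under the lowest DMSO value, an order seen in 38.2% of the 238 miRNAs, and the call held under each of the 20 alternatives, with adjusted p-values from 1.83e-05 to 0.0155.

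The rate of miR-24-3p was 0.138%, 0.130%, 0.0927% and 0.0757% in DMSO and 0.0813%, 0.0489%, 0.0510% and 0.0604% in PlaB. Its log2 fold change was -0.86 ± 0.28 (SE, edgeR adjusted p = 0.0145). The highest DMSO rates are those of replicates 1 and 2, which also have the low multi-mapping share, and PlaB replicate 1 lay above DMSO replicate 4. Without the 4 libraries with that low share the log2 fold change was -0.49 and the adjusted p 0.215. Without DMSO replicates 1 and 2 together the call was lost as well, with a log2 fold change of -0.49 and an adjusted p of 0.338. The call was also lost without DMSO replicate 1 alone (adjusted p = 0.0602), DMSO replicate 2 alone (0.0551), PlaB replicate 2 (0.0509) or PlaB replicate 3 (0.0513).

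The DMSO rates of miR-23a-3p, given above, stood against 0.173%, 0.100%, 0.0893% and 0.0946% in PlaB. The log2 fold change was -0.85 ± 0.33 (SE, edgeR adjusted p = 0.0371), and PlaB replicate 1 lay within the DMSO range. With the replicate number as a block, which pairs the libraries of 1 experiment, the adjusted p was 0.0507. The call was lost in 11 of 20 alternatives, among them those without DMSO replicate 1, 3 or 4 or without PlaB replicate 2, 3 or 4, and adjusted p-values ran from 0.00895 to 0.110.

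The other 3 members did not pass. The PlaB rates of miR-23b-3p were 0.0495%, 0.0304%, 0.0587% and 0.0554%, a log2 fold change of -0.55 ± 0.40 (SE, edgeR adjusted p = 0.288). Those of miR-27a-3p were 0.106%, 0.0921%, 0.0517% and 0.112%, all inside or below the range in DMSO, with a log2 fold change of -0.62 ± 0.52 (SE, edgeR adjusted p = 0.373). Neither was called under any alternative. The study itself, with another test of the T>C rates, reported a moderate decrease for miR-23b-3p. By a separate assay it also reported moderately less chromatin-associated primary transcript of the MIR23B cluster.

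For miR-24-2-5p the PlaB libraries split: 3.57% and 2.78% in replicates 1 and 3, from 10 and 9 conversions, and 0 of 276 and 0 of 264 covered positions in replicates 2 and 4. The log2 fold change was -0.34 ± 0.97 (SE, edgeR adjusted p = 0.848). With 264 to 324 covered positions in a PlaB library and this SE, the values do not settle whether miR-24-2-5p changed by as much as the guides.

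**Figure D4:**
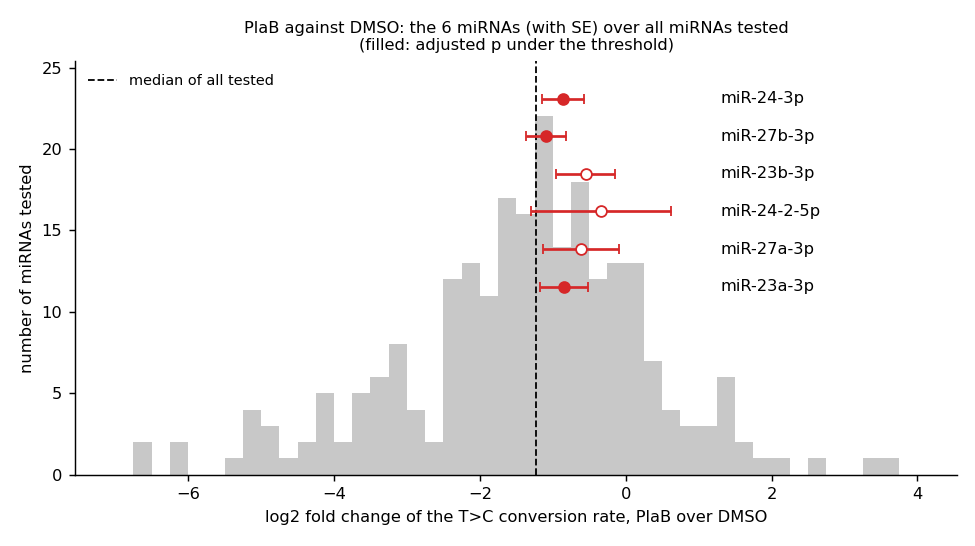
Log2 fold change of the T>C conversion rate of PlaB over DMSO (horizontal axis) for the 238 miRNAs tested, as a histogram of their number (vertical axis), with the dashed line at the median of the fitted values; points above it are the 6 miRNAs with the SE as bars, filled where the adjusted p was under 0.05. All 6 points, from -1.09 to -0.34, lie to the right of the dashed line at -1.23.

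New RNA was still detected under PlaB. Against Control, conversion rates of 6 of 6 members were higher in PlaB, where 53.4% of the 238 miRNAs were called higher, 0.42% lower and 53.8% in either direction. Log2 fold changes of the 5 guides ran from 1.69 ± 0.30 (SE) for miR-27b-3p to 2.88 ± 0.65 for miR-27a-3p, with adjusted p-values of at most 1.34e-04. The value of miR-24-3p was 2.33 ± 0.32, and 2.596 without the 4 libraries with a low multi-mapping share. For miR-24-2-5p the pooled PlaB rate of 1.66% was 9.59 times the Control limit, again without the spread between libraries (edgeR adjusted p = 0.00109). That call was lost without the 4 libraries with a low multi-mapping share (adjusted p = 0.0768).

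After subtraction of the Control rate, the PlaB rate as a share of the DMSO rate was 0.378 for miR-27b-3p, 0.475 for miR-23a-3p, 0.497 for miR-24-3p, 0.609 for miR-27a-3p and 0.622 for miR-23b-3p. Computed within each of the 4 experiments, it ranged from 0.295 to 0.497 for miR-27b-3p, from 0.248 to 0.655 for miR-23a-3p, from 0.308 to 0.766 for miR-24-3p, from 0.226 to 1.71 for miR-27a-3p and from 0.419 to 1.37 for miR-23b-3p. Without the 4 libraries with a low multi-mapping share, the share of miR-24-3p was 0.679, that of miR-23b-3p 0.683, that of miR-23a-3p 0.434, that of miR-27a-3p 0.419 and that of miR-27b-3p 0.418, another order. The ranges overlap, so the order of the 5 shares is not larger than the spread between experiments. The share of miR-24-2-5p, 0.780, ranged from 0 to 11.2 between experiments.

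The paralogues were then compared within each library, which sets aside the depth of that library. In none of 9 comparisons did a difference in the a-to-b ratio between conditions pass the test (exact two-sided permutation of 4 against 4 libraries, adjusted p over the 9 from 0.823 to 0.971, smallest possible unadjusted p 0.0286). A lone difference of any size could not have passed, since even that smallest p exceeds the threshold once adjusted over the 9. Before adjustment the exact permutation p-values ran from 0.229 to 0.971. Reads of miR-23a-3p per read of miR-23b-3p were 0.4997, 0.715, 0.617 and 0.528 in Control, 0.548, 0.687, 0.575 and 0.553 in DMSO, and 0.541, 0.721, 0.564 and 0.529 in PlaB. Replicate 2 was the highest in all 3 conditions, and the log2 ratio changed by 0.01 from Control to DMSO and by -0.01 from DMSO to PlaB.

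Reads of miR-27a-3p per read of miR-27b-3p were 0.0957, 0.134, 0.113 and 0.0885 in Control, 0.116, 0.169, 0.135 and 0.0937 in DMSO, and 0.0857, 0.152, 0.112 and 0.103 in PlaB. The mean log2 ratio was -3.23 ± 0.27 (Control), -2.99 ± 0.36 (DMSO) and -3.18 ± 0.34 (PlaB), each with its SD over 4 libraries, and again replicate 2 was the highest in all 3 conditions. Compared within each experiment, the miR-27 read ratio was higher in DMSO than in Control in 4 of 4 pairs, by 0.24 on the log2 scale on average (exact sign flips, p = 0.125, the smallest that 4 pairs allow, and 0.844 after adjustment over the 9 comparisons). The number of miR-27b-3p reads expected to carry a conversion at the base that separates the 2 sequences was 0.625% to 0.903% of the miR-27a-3p reads in DMSO and 0.271% to 0.478% in PlaB. miR-24-2-5p had more reads than miR-24-1-5p, by a mean log2 ratio of 0.77 ± 0.49 for Control cells, 0.87 ± 0.38 for DMSO cells and 0.97 ± 0.58 for PlaB cells (SD, n = 4).

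For conversion rates, miR-23a-3p was above miR-23b-3p in 4 of 4 DMSO libraries, by 2.54, 2.47, 2.89 and 4.199 times, and in 4 of 4 PlaB libraries, by 3.46, 3.25, 1.52 and 1.71 times. The exact sign-flip test gave p = 0.125 in each condition, the smallest that 4 libraries allow. In the unlabelled Control libraries the mean rate of miR-23a-3p, 0.0325%, was also above that of miR-23b-3p, 0.0121%. From DMSO to PlaB the log2 ratio went from 1.56 ± 0.35 to 1.22 ± 0.62 (SD, n = 4), a difference of -0.35 (exact permutation p = 0.371).

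The rate of miR-27a-3p was above that of miR-27b-3p in 3 of 4 DMSO libraries, by 0.778, 1.16, 2.45 and 1.78 times, and in 4 of 4 PlaB libraries, by 2.65, 2.27, 1.21 and 2.52 times (sign flips, exact p = 0.375 and 0.125). A converted miR-27b-3p read can match miR-27a-3p at the base that separates them, and the part of this in the rate ratios was not tested. The log2 ratio differed by 0.55 between PlaB and DMSO (exact permutation p = 0.229), and this difference rests on DMSO replicates 1 and 2, without which it was -0.015. For miR-24-2-5p over miR-24-1-5p the difference was 1.24 (exact permutation p = 0.343), with SDs of 1.67 in DMSO and 2.66 in PlaB. With this scatter the data do not separate the lncRNA-hosted from the intronic paralogue in their response to PlaB, nor do they show that the paralogues responded alike.

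**Figure D5:**
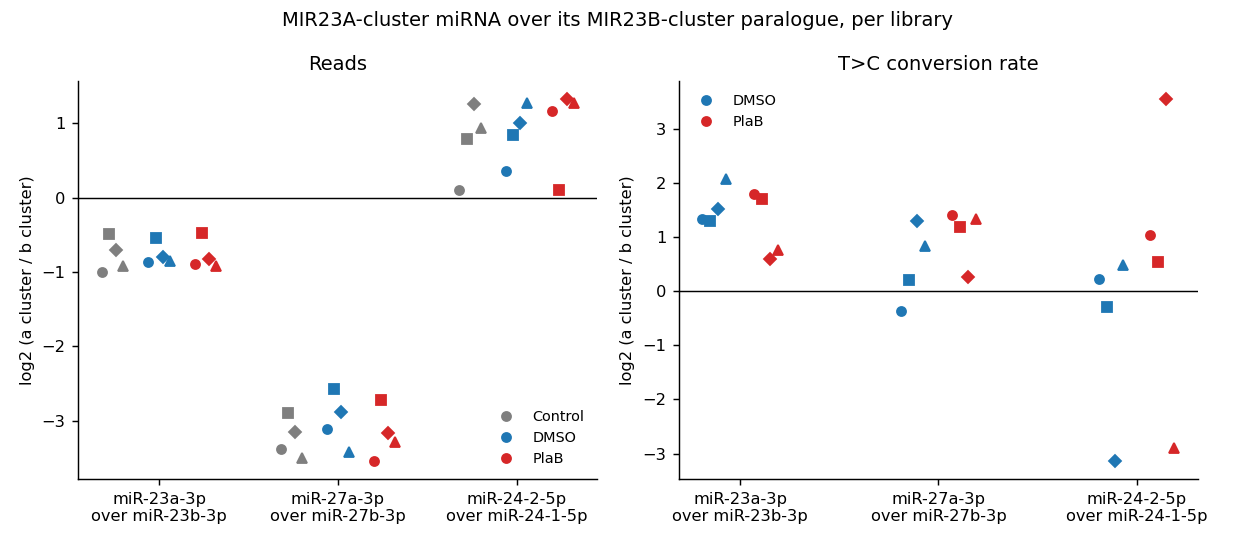
Log2 ratio of the MIR23A-cluster miRNA over its MIR23B-cluster paralogue (vertical axis) for reads in 12 libraries (left) and for T>C conversion rates in the 8 labelled libraries (right); points are libraries, coloured by condition, and marker shapes are replicate numbers. Conditions overlap for each pair, the rate ratio of miR-23a-3p to miR-23b-3p is above 0 in all 8 libraries, and the rate ratio of miR-24-2-5p to miR-24-1-5p spreads from -3.14 to 3.55.

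The 5p strands of the miR-27 hairpins are set side by side without a test of their difference, since that pair was chosen after its values were seen. The rate of miR-27a-5p was 0 of 8666 covered positions in Control, which allows up to 0.0346%, and 6.05%, 6.71%, 8.50% and 1.35% in DMSO. In PlaB it was 5.96%, 10.4%, 7.47% and 10.3%. The pooled DMSO rate was 175 times the Control limit, and the log2 fold change of PlaB over DMSO was 0.57 ± 0.50 (SE, edgeR adjusted p = 0.391). Of miR-27a-5p reads, 29.3% ± 14.3 in DMSO and 41.3% ± 12.2 in PlaB held at least 1 conversion (SD, n = 4), against 0.811% ± 0.358 of miR-27a-3p reads in DMSO.

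The rate of miR-27b-5p was 1.19%, 0.552%, 0.654% and 0.699% in DMSO and 0.0697%, 0.880%, 0.210% and 0.142% in PlaB. PlaB replicate 2, with 18 conversions, stood above the other PlaB libraries, which had 1 or 2. The log2 fold change was -1.16 ± 0.77 (SE, edgeR adjusted p = 0.226). Without PlaB replicate 2 it was -2.50 (edgeR adjusted p = 0.0295), and this was the only 1 of 19 alternatives that passed. Over the 19, the log2 values ran from -2.50 to -0.83 and the adjusted p-values from 0.0295 to 0.597.

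The 5p strand of each miR-27 hairpin had a higher rate than its 3p strand in 4 of 4 DMSO and 4 of 4 PlaB libraries. The pooled DMSO rate of miR-27a-5p was 48.1 times that of miR-27a-3p, and that of miR-27b-5p was 9.05 times that of miR-27b-3p. In PlaB these were 93.0 and 9.15 times. Side by side, the reads of miR-27a-5p were at 72.3, 60.1, 18.2 and 27.2 CPM in PlaB, 2 of them above every DMSO library, and those of miR-27b-5p at 157.0, 172.2, 99.8 and 123.0 CPM, overlapping DMSO. The read change of miR-27a-5p from DMSO to PlaB was 0.89 ± 0.33 on the log2 scale and did not pass (SE, edgeR adjusted p = 0.572).

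For miR-24-1-5p, the MIR24-1 strand, the rate was 3.20%, 2.24%, 3.12% and 1.46% in DMSO, from 21, 15, 10 and 2 conversions, and 0 of 1647 positions in Control, which allows up to 0.182%. In PlaB 3, 0, 0 and 2 conversions were found, and the log2 fold change was -2.03 ± 1.12 (SE, edgeR adjusted p = 0.145). The miR-23 5p strands were too scarce to follow: miR-23b-5p had 5, 2, 4 and 0 conversions in the DMSO libraries and 0 of 592 positions in PlaB, which allows up to 0.507%, and miR-23a-5p had 3 conversions in all, below the minimum for the test. Of the partner strands, 4 of 5 were thus tested for conversions, and 0 of these 4 were called between PlaB and DMSO, where 37.4% of the 238 miRNAs were. The hairpin MIR3074 overlaps MIR24-1 on the opposite strand. In the DMSO libraries 0 conversions were found over 1705 positions of miR-3074-5p and 744 of miR-3074-3p. In PlaB miR-3074-5p had 1 conversion over 1112 positions and miR-3074-3p 0 over 508. Of the miR-3074-5p reads in DMSO, 50.6% to 100% per library were marked as multi-mapping, so not all can be placed at MIR3074.

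Across all 12 libraries, the 4 with a low multi-mapping share included, the level of miR-23a-3p followed that of its cluster neighbour miR-27a-3p (Pearson r of log2 CPM 0.85) more than that of its paralogue miR-23b-3p (0.70), given as a description over libraries that share experiments. miR-27a-3p and miR-27b-3p had r = 0.44, and miR-23b-3p and miR-27b-3p had r = 0.36. miR-24-3p had negative values with every other member, from -0.40 with miR-27b-3p to -0.04 with miR-24-2-5p. Its levels were lower in the 4 libraries than in all others, and the part of this split in its r values, here and below, was not tested. Among the 537 miRNAs, the levels most like those of miR-23a-3p were those of miR-582-3p (0.92) and miR-429 (0.90), which were also the nearest to miR-27a-3p (0.91 and 0.87). The nearest to miR-24-3p were miR-365a-3p (0.91) and miR-548ay-5p (0.86), to miR-23b-3p miR-146a-5p (0.74) and miR-193b-3p (0.72), to miR-27b-3p miR-200b-5p (0.89) and miR-200a-3p (0.89), and to miR-24-2-5p miR-3129-3p (0.74) and miR-4699-3p (0.73).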

How the data were processed

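The deposited tables of 12 SLAMseq libraries were used, with conditions and replicate numbers from the sample labels. Adapter trimming, alignment to GRCh38 and counting over miRBase mature miRNAs with SLAM-DUNK had been done by the authors. They masked SNPs and set no limit on mapping quality, so multi-mapping reads stayed in. They also filtered reads by mismatches and by mapping integrity, and state that for miRNA reads the integrity filter overrode the mismatch limit. Whether reads with several conversions were lost to it was not tested. The authors' tables hold counts (reads, multi-mapping reads, reads with a T>C conversion, conversions and covered T positions), a CPM value and a conversion rate as a fraction, printed here in percent. For miR-24-3p they sum both loci.

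Reads were tested with edgeR 4.0.16 in R 4.3.3 (TMM, filterByExpr, 1 quasi-likelihood fit of 3 conditions, 537 miRNAs). Conversions were tested the same way with log covered T positions as the offset, for 238 miRNAs that also had at least 10 conversions in all. All 6 members passed both filters. P-values were adjusted by Benjamini-Hochberg over all miRNAs tested, with a threshold of 0.05, and the SE is the log2 fold change divided by the square root of F. Ratios of paralogues had 0.5 added to each count and were compared by exact permutation or sign flips in scipy 1.17.1. A count of 0 was limited at 3 conversions. Reads carry no molecular identifiers. Only the edgeR fits of PlaB against DMSO were run on simulated data. In these, Control and DMSO had the same mean and experiments did not differ, unlike the real data.

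Replicate numbers mark 4 independent experiments. Deviations of log2 CPM from the condition mean correlated between libraries of the same number, with median r of 0.557 to 0.571 and a minimum of 0.208. Between libraries of different numbers the median r was -0.225 to -0.171 and the highest 0.322. By these medians the numbers pair the libraries for reads. For conversion rates the medians for the same number were -0.018, 0.049 and 0.102. Fits without a block are given first. Alternatives were RLE size factors, DESeq2 1.42.0, no filter, the 143 miRNAs of the study's Initial miRNA Dataset, the compared conditions alone, reads with a conversion, a replicate block, each library left out, DMSO replicates 1 and 2 left out, and, chosen after seeing the data, the 4 libraries with a low multi-mapping share left out.

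The members, lists and tests were chosen with earlier results of these data known. Named miRNAs are the 6 members, the 5 partner strands, the marker miRNAs and, for each member, the 2 miRNAs with the highest Pearson r of log2(CPM + 1) over the libraries. miR-3074 and the 5 miRNAs with a changed multi-mapping share were named after their values were seen.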

Additional observations from a re-analysis of the deposited data

Results flagged for a closer look

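Among 35 groups of 4 libraries (the CPM and conversion rates of the 6 miRNAs in the 3 conditions), 1 value stood far from the others by Dixon's test, and chance alone flags about 1 group in 20. It was the conversion rate of miR-23a-3p in PlaB replicate 1, 0.173%, against 0.0893% to 0.100% in the other PlaB libraries. Its gap to the next library was 0.867 of the range of the group. Without this library the decrease of miR-23a-3p between PlaB and DMSO was larger, with a log2 fold change of -1.10.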

How the results depend on the processing

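For the 30 results of the 6 miRNAs in the 5 comparisons by edgeR, 595 values were computed under alternatives. Of these, 520 kept their direction and their side of the threshold, 19 lost the call and 56 changed sign, 51 of the latter in read changes that were never called. The count of members called between PlaB and DMSO by conversions was 3 and ranged from 1 to 3 with a library left out. It was 1 without DMSO replicates 1 and 2 and 1 without the 4 libraries with a low multi-mapping share, where 202 and 197 miRNAs could be tested. With the replicate block it was 2, since miR-23a-3p lost its call (adjusted p = 0.0507), and the block changed no other call of a member. Among the partner strands the block ended the conversion calls against Control of miR-23b-5p in DMSO (adjusted p = 0.0977) and miR-24-1-5p in PlaB (0.0535). Over all miRNAs, the number called by reads between DMSO and Control was 32, 60 with the block, 48 by DESeq2, 13 without the 4 libraries and 17 without DMSO replicates 1 and 2. Between PlaB and DMSO it was 2 by reads, and 6 with the block or by DESeq2, and 89 by conversions, and 52 under either of the last settings. The causes were not tested.

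The following log2 values changed sign. Without the 4 low multi-mapping libraries, the a-to-b difference of PlaB and DMSO was -0.015 for the miR-27 rates, 0.051 for the miR-23 reads and -0.17 for the miR-24 5p reads, the same as without DMSO replicates 1 and 2, and the latter also gave -0.051 for the miR-23 reads of DMSO over Control. Read changes of DMSO over Control became -0.054 (miR-23b-3p) without the 4 libraries, and -0.13 (miR-23a-3p), -0.054 (miR-23b-3p) and -0.082 (miR-27a-3p) without DMSO replicates 1 and 2. Those of PlaB over DMSO became, without the 4 libraries, 0.20 for miR-23a-3p, 0.13 for miR-23b-3p, 0.15 for miR-27a-3p, 0.13 for miR-24-2-5p, 0.32 for miR-24-1-5p and 0.023 for miR-23b-5p. Without DMSO replicates 1 and 2 they became 0.17 (miR-23a-3p), 0.10 (miR-23b-3p), 0.11 (miR-27a-3p), 0.094 (miR-24-2-5p) and 0.28 (miR-24-1-5p). For miR-23a-3p and miR-23b-3p they were 0.024 and 0.031 both with RLE size factors and by DESeq2, and 0.034 and 0.042 with the compared conditions alone, which gave 0.0033 for miR-24-2-5p. The conversion change of miR-24-2-5p from DMSO to PlaB became 0.41 and 0.40 without the 4 and without the 2 libraries.

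With 1 library left out, these crossed 0: a-to-b reads of DMSO over Control for miR-23 (-0.066 to 0.11) and the miR-24 5p strands (-0.12 to 0.27), and of PlaB over DMSO (-0.11 to 0.065 and -0.076 to 0.38). Reads of DMSO over Control crossed it for miR-23a-3p (-0.12 to 0.17), miR-23b-3p (-0.033 to 0.086), miR-24-3p (-0.037 to 0.27) and miR-27a-3p (-0.088 to 0.32). Reads of PlaB over DMSO did so for miR-23a-3p (-0.14 to 0.16), miR-23b-3p (-0.047 to 0.079), miR-27a-3p (-0.37 to 0.11), miR-27b-3p (-0.0023 to 0.12), miR-24-2-5p (-0.19 to 0.20), miR-24-1-5p (-0.41 to 0.10) and miR-23b-5p (-0.39 to 0.30). Conversions did so for miR-24-2-5p in PlaB over DMSO (-1.05 to 0.16), and for miR-23b-5p in PlaB over Control they ran from -1.28 to 0.0. The a-to-b rate difference with the Control rate subtracted has no value for the miR-24 5p pair, since some PlaB libraries had 0 conversions. Depth limits the partner strands and miR-24-2-5p, whose rates rest on few conversions.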
